A study of Homo sapiens with 8 samples.

Results

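The genes described here encode subunits of the vacuolar proton ATPase (V-ATPase), measured by RNA sequencing in Panc 10.05, an established cell line of human pancreatic ductal adenocarcinoma. The 10 genes, ATP6V1A, ATP6V1B2, ATP6V1C1, ATP6V1D, ATP6V1E1, ATP6V1G1, ATP6V1H, ATP6V0A1, ATP6V0D1 and ATP6AP1, were taken by symbol from a table of 58870 gene rows. All 10 were found once and all passed the filter on low counts, as did 13860 genes in all. The labels put 4 libraries in a Panc 10.05 control group and 4 in a Panc 10.05 ELAPOR1 transgene group, also labelled as ELAPOR1 overexpression, where ELAPOR1 is a transmembrane protein of endosomes and lysosomes. No age, drug or time point is given for either group, and what the control cells carried, how the transgene was delivered and whether the cells were clones or pools are not given in the sources used here. Nor do the labels say that replicates were separate cultures, so p-values measure the spread between these libraries, which may be technical. The series' title sets out the question of how ELAPOR1 relates to tumour subtype and metabolism.

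The V-ATPase is a rotary pump that uses ATP to move protons into lysosomes, endosomes, the Golgi and secretory granules. Its cytosolic V1 part holds the catalytic head of A and B subunits, a central stalk of D and F, peripheral stalks of E and G, and the C and H subunits that join V1 to the membrane or regulate it. Its membrane V0 part holds the a, d and e subunits and a ring of proteolipids through which protons pass, with the accessory proteins ATP6AP1 and ATP6AP2. Lysosomal acidity is needed by acid hydrolases, and the pump also takes part in amino acid sensing by mTORC1 on the lysosome.

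Library totals ranged from 16558600 to 18128757 counts in control and from 13765509 to 17258166 in ELAPOR1 libraries. The targeted gene, listed as KIAA1324, had 1 to 4 counts in control and 5910 to 7368 counts in ELAPOR1 libraries, so the 8 libraries matched their labels. Markers of ductal epithelium (KRT19, KRT7, KRT8, KRT18, EPCAM, CDH1) summed to 11929 to 13196 counts relative to the TMM-scaled library total (CPM) in control and 11159 to 11510 CPM in ELAPOR1 libraries. A gene was called where the edgeR quasi-likelihood test gave a Benjamini-Hochberg adjusted p under 0.05. Of these 6 markers KRT8 and KRT18, which made up most of the sum, were called lower (log2 fold changes -0.16 and -0.36), KRT19, KRT7 and CDH1 were called higher (0.25, 0.32 and 0.11) and EPCAM was not called (-0.03). Of 6 fibroblast markers 5 had at most 10 counts in every library, as did 3 of 4 leukocyte, 2 of 3 endothelial and 5 of 5 acinar or endocrine markers. The exceptions were COL1A1, CD68, which encodes a lysosomal protein, and VWF, and the leukocyte sum, nearly all CD68, was 81.8 to 87.9 CPM in control and 72.6 to 78.8 CPM in ELAPOR1 libraries. VWF was called lower, at 1.69 ± 0.177 against 0.761 ± 0.137 CPM (SD, n = 4 each; edgeR adjusted p = 0.0019), and COL1A1 was not called. The part of these markers in the results was not tested. In such bulk libraries, fewer cells of a kind and less RNA per cell cannot be told apart.

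By the main calls, ELAPOR1 libraries held more RNA of the catalytic head and less of the C, E, G and H subunits. The level of the central stalk genes passed no test. With trends in GC content and transcript length taken out, ATP6V1A (0.05, edgeR adjusted p = 0.18) and ATP6V1G1 (-0.07, adjusted p = 0.16) were not called. Of the 10 genes 8 were called: ATP6V1H, ATP6V1C1, ATP6V1E1, ATP6AP1 and ATP6V1G1 were lower, and ATP6V0D1, ATP6V1B2 and ATP6V1A were higher. Over all tested genes 44.7% were called, 22.1% lower and 22.6% higher. Among the 5542 tested genes whose mean lay between 26.2 and 155.7 CPM, the range of the 10 members, 54.8% were called, 25.5% lower and 29.3% higher. The median log2 fold change of the 10 genes was -0.06, beside 0.0009 for all tested genes, and single members ran from -0.48 to 0.24. The members' median was -0.04 by total count scaling and -0.01 with trends in GC content and transcript length taken out. For 6 of the 10 the groups' CPM ranges were apart, beside 39.2% of all tested genes with groups apart. The counts are small and nothing particular to the pump is read from them.

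**Figure D1:**
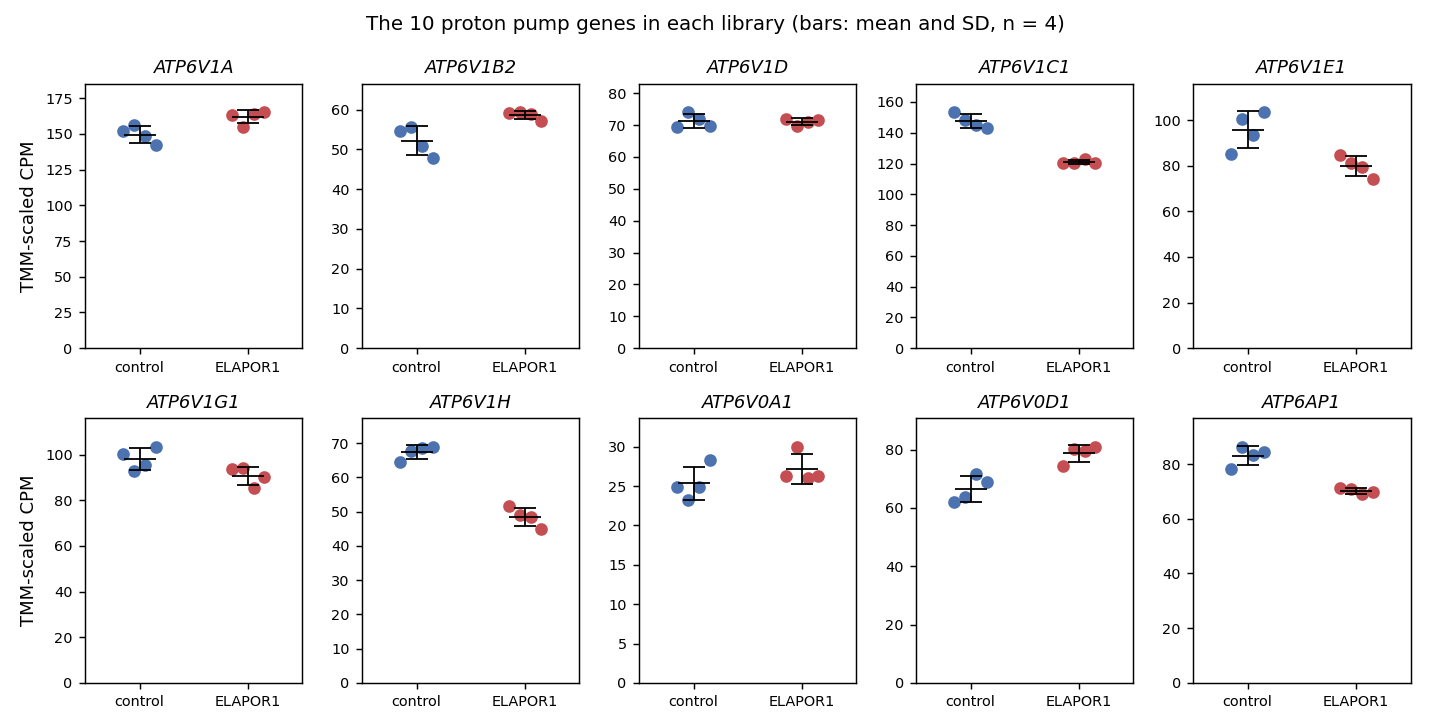
CPM scaled by TMM (vertical axis) of each of the 10 genes in the 4 control (blue) and 4 ELAPOR1 (red) libraries, with the mean and SD as black bars. ATP6V1H and ATP6V1C1 show the widest gaps, with every ELAPOR1 library below every control library. The groups overlap for ATP6V1D and ATP6V0A1, and also for the called ATP6V1A and ATP6V1G1.

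The catalytic head is built from ATP6V1A, which binds and hydrolyses ATP, and ATP6V1B2, the B subunit found in most tissues. ATP6V1A (ENSG00000114573.10, chromosome 3, 113747019 to 113812056, plus strand) was at 152, 156, 148 and 142 CPM in control libraries 1 to 4 and at 164, 155, 164 and 165 CPM in ELAPOR1 libraries 1 to 4. ELAPOR1 library 2 lay within the control range and the other ELAPOR1 libraries lay above it. The log2 fold change by edgeR was 0.12 (SE 0.0353, adjusted p = 0.0073). Removing trends in GC content and transcript length ended the call (0.05, edgeR adjusted p = 0.18).

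ATP6V1B2 (ENSG00000147416.11, chromosome 8) was at 54.7, 55.6, 50.9 and 47.7 CPM in control and at 59.0, 59.4, 58.9 and 57.1 CPM in ELAPOR1 libraries. All ELAPOR1 libraries were above all control libraries, and they lay closer together. Its log2 fold change by edgeR was 0.17 (SE 0.050, adjusted p = 0.0071).

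ATP6V1D, a rod of the central stalk that turns inside the head, was at 69.4, 74.1, 71.9 and 69.7 CPM in control and at 72.1, 69.8, 70.9 and 71.6 CPM in ELAPOR1 libraries. The groups overlapped, and the mean was 71.3 ± 2.19 against 71.1 ± 0.983 CPM (SD, n = 4 each; edgeR adjusted p = 0.96). The gene (ENSG00000100554.12, chromosome 14, 67294371 to 67360265, minus strand) shares its span with MPP5 and EIF2S1 on the other strand, and the use of strand in counting is not given in the sources used here. ATP6V1F, the other central stalk gene and not among the 10, was at 83.4 ± 5.18 and 79.9 ± 4.52 CPM (SD, n = 4 each; edgeR log2 fold change -0.06 with SE 0.0469, adjusted p = 0.31).

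ATP6V1H, the subunit that keeps free V1 from spending ATP and that couples V1 to V0, changed most among the 10. It (ENSG00000047249.18, chromosome 8) was at 64.5, 67.6, 68.6 and 69.0 CPM in control and at 51.5, 49.0, 48.3 and 44.9 CPM in ELAPOR1 libraries. The lowest control library was above the highest ELAPOR1 library by more than the spread within either group. The log2 fold change by edgeR was -0.48 (SE 0.0485, adjusted p = 5.6e-10), and 7.59% of all tested genes had a lower one.

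ATP6V1C1, the C subunit that bridges the peripheral stalks to V0, is also on chromosome 8 (ENSG00000155097.12). Its level was 154, 149, 145 and 143 CPM in control and 120, 120, 123 and 120 CPM in ELAPOR1 libraries. The ELAPOR1 libraries were nearly level with each other and all below the controls. The mean fell by 18.1% (edgeR log2 fold change -0.29 with SE 0.0349, adjusted p = 2.1e-08).

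ATP6V1E1 and ATP6V1G1 form the peripheral stalks that hold the head still. ATP6V1E1 (ENSG00000131100.13, chromosome 22, 17592136 to 17628818, minus strand) was at 85.3, 100.5, 93.7 and 103.6 CPM in control and at 84.9, 81.3, 79.6 and 74.4 CPM in ELAPOR1 libraries. The groups did not overlap, but control library 1 was hardly above ELAPOR1 library 1. The log2 fold change by edgeR was -0.26 (SE 0.0525, adjusted p = 0.00027). ATP6V1G1 (ENSG00000136888.7, chromosome 9, 114587746 to 114598373, plus strand) was at 100.5, 93.0, 95.5 and 103.5 CPM in control and at 93.5, 94.1, 85.6 and 90.2 CPM in ELAPOR1 libraries. Here the groups overlapped, and the change was the smallest called (edgeR log2 fold change -0.11 with SE 0.0422, adjusted p = 0.033). The ATP6V1G1 call was lost under 7 of 19 alternatives, among them leaving out control replicate 4 (-0.08, edgeR adjusted p = 0.11), ELAPOR1 replicate 3 (-0.08, adjusted p = 0.14) or ELAPOR1 replicate 4 (-0.11, adjusted p = 0.079).

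Because both numbers come from the same library, the ratio of a subunit to ATP6V1A, each per kilobase of transcript, needs no scaling between libraries. The ratio of ATP6V1H to ATP6V1A was 0.983, 1.001, 1.07 and 1.123 in control libraries and 0.727, 0.731, 0.681 and 0.627 in ELAPOR1 libraries. It thus went from 1.04 ± 0.0644 to 0.691 ± 0.0486 (SD, n = 4 each), with no overlap. The ratio of ATP6V1C1 to ATP6V1A went from 2.50 ± 0.0699 to 1.89 ± 0.0533, that of ATP6V1E1 from 2.44 ± 0.262 to 1.88 ± 0.131, and that of ATP6AP1 from 1.04 ± 0.0627 to 0.809 ± 0.0309, none with overlap. The ratio of ATP6V1D to ATP6V1A went from 2.003 ± 0.0627 to 1.84 ± 0.0347, also without overlap, though ATP6V1D itself was nearly level (71.3 and 71.1 CPM). ATP6V1A divides every ratio here. Its own rise was not called with trends in GC content and transcript length taken out (0.05, edgeR adjusted p = 0.18). ATP6V1D was then at 0.04 (edgeR adjusted p = 0.44), close to ATP6V1A, while ATP6V1H, ATP6V1C1, ATP6V1E1 and ATP6AP1 stayed called lower. The ratios carry no correction for such trends. The ratio of ATP6V1B2 to ATP6V1A, 0.557 ± 0.0178 and 0.578 ± 0.0250, overlapped between groups, as did those of ATP6V1G1, ATP6V0D1 and ATP6V0A1. These pairs were set with the values in view and are a description, with no test.

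**Figure D2:**
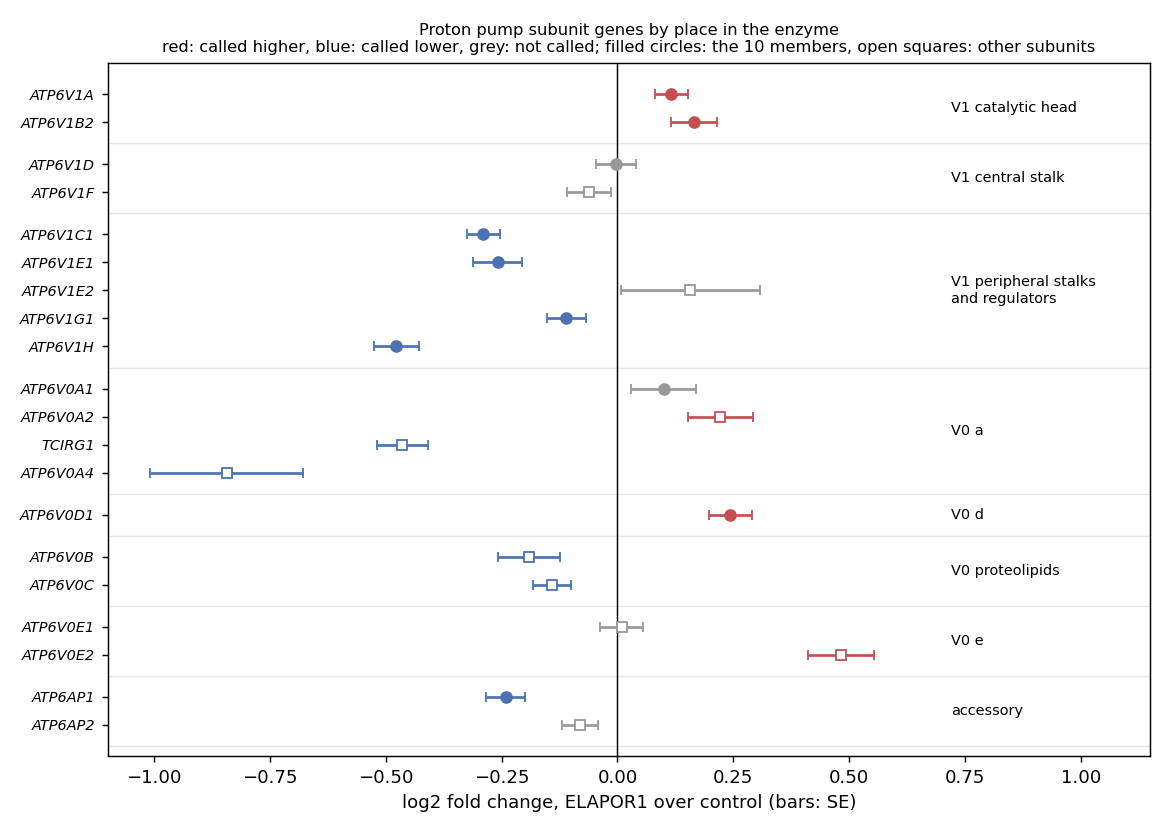
Log2 fold change of ELAPOR1 over control (horizontal axis, bars are the SE) for the 20 tested subunit genes, ordered by place in the enzyme. Filled circles are the 10 members and open squares the other subunits, in red where called higher, blue where called lower and grey where not called. The head genes lie right of 0, and ATP6V1H, ATP6V1C1, ATP6V1E1 and ATP6V1G1 lie left of it.

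In V0, ATP6V0D1, which caps the proteolipid ring and meets the central stalk, was the member with the largest rise. It (ENSG00000159720.12, chromosome 16, 67438014 to 67481237, minus strand) was at 62.0, 63.7, 71.7 and 68.8 CPM in control and at 74.5, 80.04, 79.5 and 81.0 CPM in ELAPOR1 libraries. All ELAPOR1 libraries were above all controls (edgeR log2 fold change 0.24 with SE 0.0469, adjusted p = 6.2e-05). Of the 20 nearest tested genes at 5 CPM or more on average, 10 on each side, 17 had a log2 fold change above 0. The median of the 20 was 0.17, and 11 were called higher and 2 lower, beside 22.6% and 22.1% of all tested genes. The part of this stretch of chromosome 16 in the rise of ATP6V0D1 was not tested.

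ATP6V0A1, a form of the a subunit whose membrane domain holds the proton path, is also the least abundant member. It (ENSG00000033627.16, chromosome 17, 42458844 to 42522611, plus strand) was at 24.9, 23.2, 24.9 and 28.3 CPM in control and at 26.3, 30.0, 26.1 and 26.3 CPM in ELAPOR1 libraries. The groups overlapped, and the difference was not called (edgeR log2 fold change 0.10 with SE 0.0702, adjusted p = 0.26). Its 20 neighbours on chromosome 17 had a median log2 fold change of 0.06, with 8 called higher and 4 lower. For the other members these medians lay between -0.15 and 0.07, and the lowest were those of ATP6V1C1 and ATP6V1H. The neighbours of ATP6V1C1 had a median of -0.15 (10 called lower and 1 higher) and those of ATP6V1H one of -0.12 (10 called lower and 6 higher). Of all tested genes 22.1% were called lower and 22.6% higher. The part of these neighbours in the falls of ATP6V1C1 and ATP6V1H was not tested. The neighbours' medians beyond chromosomes 16 and 17 were read after the members' values were seen.

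ATP6AP1, an accessory glycoprotein needed to assemble V0 in the endoplasmic reticulum, was lower. It (ENSG00000071553.17, chromosome X, 154428632 to 154436516, plus strand) was at 78.0, 86.3, 83.4 and 84.6 CPM in control and at 71.3, 70.8, 69.0 and 69.9 CPM in ELAPOR1 libraries. Every ELAPOR1 library was below every control library (edgeR log2 fold change -0.24 with SE 0.0425, adjusted p = 1.7e-05). Its partner ATP6AP2, not among the 10, was at 107.7 ± 1.89 and 101.7 ± 4.48 CPM (SD, n = 4 each; edgeR log2 fold change -0.08 with SE 0.0387, adjusted p = 0.088).

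Of the 15 other subunit genes 10 were tested, with a median log2 fold change of -0.07. Beside 44.7% of all tested genes, 6 of these 10 were called, 4 lower and 2 higher. The lower ones were the a-subunit forms TCIRG1 (a3, known from osteoclasts) and ATP6V0A4 (a4, known from kidney) and the proteolipids ATP6V0B and ATP6V0C. The higher ones were ATP6V0A2 (a2, a Golgi and endosome form) and ATP6V0E2 (an e-subunit form). The calls of the proteolipid genes depended on the processing. With trends in GC content and length taken out, ATP6V0B was at -0.09 (edgeR adjusted p = 0.22) in place of -0.19 and ATP6V0C at 0.01 (adjusted p = 0.87) in place of -0.14, which left 2 lower calls. The call of ATP6V0B was also lost without control replicate 3 (-0.18, edgeR adjusted p = 0.061) or 4 (-0.14, adjusted p = 0.10), or without ELAPOR1 replicate 1 (-0.19, adjusted p = 0.052) or 2 (-0.18, adjusted p = 0.059). Without control replicate 2 the call of ATP6V0A2 was also lost (0.18, edgeR adjusted p = 0.056), which left 1 higher call.

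The a-subunit forms went in opposite directions. TCIRG1 (ENSG00000110719.10, chromosome 11, 68039016 to 68050895, plus strand) was at 46.3, 47.7, 52.0 and 48.2 CPM in control and at 33.2, 37.5, 33.8 and 36.2 CPM in ELAPOR1 libraries (edgeR log2 fold change -0.46 with SE 0.0557, adjusted p = 1.9e-08). ATP6V0A4 was lower at a far lower level, 4.82 ± 0.165 against 2.68 ± 0.185 CPM (SD, n = 4 each; edgeR log2 fold change -0.84 with SE 0.165, adjusted p = 7.9e-05). ATP6V0A2 was at 20.8, 18.1, 19.8 and 20.9 CPM in control and at 23.0, 24.3, 22.7 and 23.0 CPM in ELAPOR1 libraries (edgeR log2 fold change 0.22 with SE 0.0709, adjusted p = 0.011). For these genes no ELAPOR1 library overlapped the controls. The 20 neighbours of TCIRG1 on chromosome 11 had a median log2 fold change of -0.18. Of them 11 were called lower and 2 higher, beside 22.1% and 22.6% of all tested genes. Their part in its fall was not tested. The neighbours' medians were -0.05 for ATP6V0C, 0.03 for ATP6V0A2 and 0.04 for ATP6V0E2. Neighbours of genes other than members were not in the plan.

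Within each library TCIRG1 therefore took a smaller share of the summed counts of the 4 a-subunit genes. Its share was 47.7%, 50.9%, 51.1% and 47.2% in control and 39.0%, 39.7%, 39.6% and 41.0% in ELAPOR1 libraries. The mean went from 49.2 ± 2.05% to 39.8 ± 0.810% (SD, n = 4 each), a difference of -9.40 percentage points, with TCIRG1 lower in 4 of 4 ELAPOR1 libraries than in any control. The exact permutation test, two-sided, gave p = 0.0286, the smallest that 4 against 4 libraries can give (0.0429 adjusted over 3 subunit families). The share of the member ATP6V0A1 went from 25.7 ± 1.48% to 30.8 ± 0.858% and that of ATP6V0A2 from 20.2 ± 1.02% to 26.3 ± 0.599% (SD, n = 4 each). The sum over the 4 genes was 98.6 ± 4.01 CPM in control and 88.2 ± 4.32 CPM in ELAPOR1 libraries. These shares of counts carry no correction for length. Per kilobase of transcript TCIRG1 was above ATP6V0A2 in control, at 18.9 ± 0.944 against 12.3 ± 0.822 CPM. In ELAPOR1 libraries the values were 13.7 ± 0.785 and 14.3 ± 0.442 CPM per kilobase (SD, n = 4 each). The transcript length used was 1620 bases for ATP6V0A2, beside 2567 for TCIRG1, 3038 for ATP6V0A1 and 2880 for ATP6V0A4. A longer ATP6V0A2 transcript would lower its values per kilobase, so its order with TCIRG1 in ELAPOR1 libraries is not settled.

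Of the genes of the e subunit, a small membrane protein of V0, ATP6V0E2 rose and ATP6V0E1 was not called. ATP6V0E2 was at 17.6, 20.2, 18.5 and 18.9 CPM in control and at 24.7, 26.9, 28.3 and 25.3 CPM in ELAPOR1 libraries, with no overlap (edgeR log2 fold change 0.48 with SE 0.0712, adjusted p = 9.6e-07). ATP6V0E1, the more abundant form, was at 65.7 ± 3.32 and 66.1 ± 2.55 CPM (SD, n = 4 each; log2 fold change 0.01, edgeR adjusted p = 0.89). The share of ATP6V0E1 in the sum of both was 77.9%, 77.2%, 77.5% and 78.4% in control and 72.03%, 70.7%, 70.2% and 73.3% in ELAPOR1 libraries, a difference of -6.22 points (exact permutation p = 0.0286, two-sided, 0.0429 adjusted over 3 families). The sum of both was 84.5 ± 4.24 CPM in control and 92.4 ± 3.12 CPM in ELAPOR1 libraries (SD, n = 4 each). With counts taken per kilobase the difference in share was -3.15 points and passed the same test. An antisense gene, ATP6V0E2-AS1, overlaps ATP6V0E2 and held 9.08% of its level, and its log2 fold change was 0.96 (edgeR adjusted p = 0.0014). Without strand, reads of the pair cannot be told apart.

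**Figure D3:**
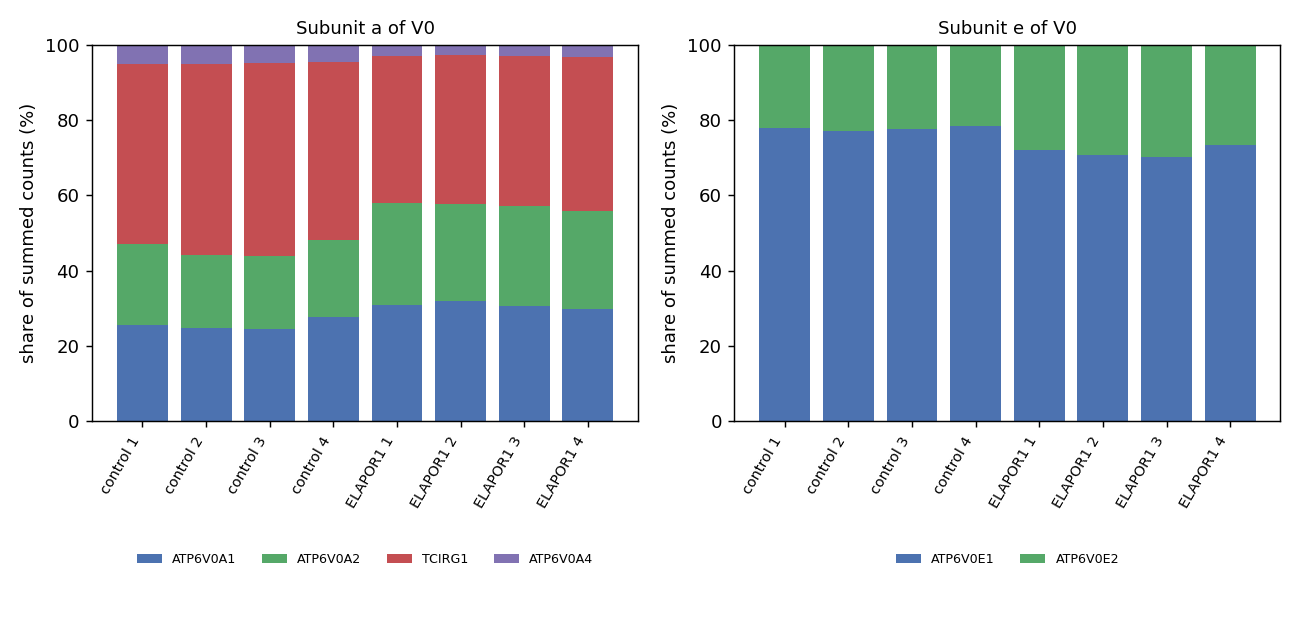
Share (%) of the summed counts of a subunit family taken by each of its genes, in each of the 8 libraries, for subunit a (left) and subunit e (right) of V0. The red TCIRG1 part is smaller in every ELAPOR1 library, and the green ATP6V0E2 part is larger.

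The peripheral stalk form ATP6V1E2, known from testis, was at 5.13 ± 0.915 and 5.75 ± 0.940 CPM (SD, n = 4 each; edgeR adjusted p = 0.42). RHOQ, on the other strand of its span, held 714% of its level and was called lower (-0.31, edgeR adjusted p = 3.3e-05). The share of ATP6V1E1 in the E family was 94.9 ± 1.14% in control and 93.3 ± 1.07% in ELAPOR1 libraries (exact permutation p = 0.114, two-sided, 0.114 adjusted over 3 families). The other 5 subunit genes did not pass the filter. ATP6V1B1, the kidney form of B, had 15, 6, 8 and 10 counts in control and 2, 0, 1 and 4 counts in ELAPOR1 libraries. With no filter it was called (log2 fold change -2.29, edgeR adjusted p = 0.0049). It shares its span with ATP6V1B1-AS1 on the other strand, which held 182% of its level. ATP6V1C2 reached at most 12 counts, ATP6V1G2 at most 17 and ATP6V0D2 at most 1 count in any library, and ATP6V1G3 had none. Members therefore supplied nearly all counts of the B, C, E, G and d subunits, but not of the a subunit.

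Levels can be compared between genes only per length, here as CPM per kilobase of the median GENCODE transcript. In control libraries the 20 tested genes ran from ATP6V1F at 117.8 ± 7.32 to ATP6V0A4 at 1.67 ± 0.0572 CPM per kilobase (SD, n = 4). Among the members ATP6V1G1 was highest at 90.9 ± 4.41, followed by ATP6V1C1 at 81.3 ± 2.52, ATP6V1E1 at 79.3 ± 6.72, ATP6V1D at 65.2 ± 2.01 and ATP6V0D1 at 42.8 ± 2.87 CPM per kilobase. The control ranges of ATP6V1C1 and ATP6V1E1 overlapped, as did those of ATP6V1H at 33.9 ± 1.01, ATP6AP1 at 33.8 ± 1.46 and ATP6V1A at 32.6 ± 1.30, each with the next. ATP6V1B2 at 18.2 ± 1.26 and ATP6V0A1 at 8.34 ± 0.707 CPM per kilobase were the lowest members. Read against the control order, ATP6V1H at 24.4 ± 1.38 CPM per kilobase in ELAPOR1 libraries fell below ATP6V1A at 35.3 ± 1.02, beside which it had stood in control. Transcript ends that differ between cells would change these lengths, so the order is approximate.

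**Figure D4:**
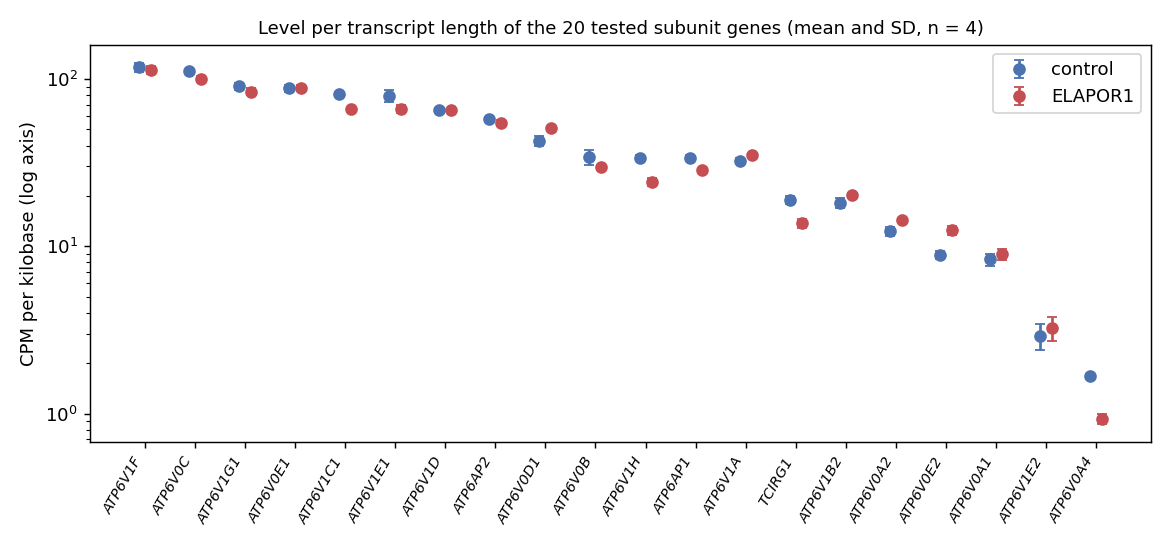
Level per transcript length (CPM per kilobase, log axis) of the 20 tested subunit genes in control (blue) and ELAPOR1 (red) libraries, as mean and SD over 4 libraries, ordered by the control level. ATP6V1F is highest and ATP6V0A4 lowest, and ATP6V1A and ATP6V1H, alike in control, lie apart in ELAPOR1 libraries.

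Many V-ATPase genes are known to carry the CLEAR element, a palindrome bound by TFEB, TFE3 and MITF, whose core is CACGTG and whose full form is TCACGTGA between a G and a C. RefSeq promoters (GRCh38.p14, 250 bases before to 50 after each start) were in the table used for 6 of the 10 members, ATP6V1D, ATP6V1E1, ATP6V1G1, ATP6V0A1, ATP6V0D1 and ATP6AP1. CACGTG, which reads the same on both strands, was in 2 of these 6, beside 8.77% of 27305 genes. TCACGTGA was in the same 2 members, beside 1.18% of genes, and the full form in 1, ATP6V1G1, beside 0.421% (shorter motifs lie within the longer). The 100 bases before the start are shown for both, with CACGTG in capitals. The windows are chr9:114587669-114587768 (plus strand) for ATP6V1G1, and chr16:67481158-67481257 (minus strand) for ATP6V0D1. Next come ATP6V0E2 (chr7:149872868-149872967, plus strand) and ATP6V0B (chr1:43974860-43974959, plus strand), which hold the core with other flanks. They are the only 2 with CACGTG among the 12 other subunits in the table, and TCACGTGA was in 0 of these 12. ATP6AP1 (chrX:154428577-154428676, plus strand) and ATP6V1E1 (chr22:17628823-17628922, minus strand) are shown as called members without it.
ATP6V1G1: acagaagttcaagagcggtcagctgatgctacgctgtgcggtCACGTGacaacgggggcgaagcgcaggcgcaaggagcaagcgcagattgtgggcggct
ATP6V0D1: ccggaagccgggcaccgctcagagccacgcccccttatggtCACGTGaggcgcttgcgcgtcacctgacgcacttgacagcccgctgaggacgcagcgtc
ATP6V0E2: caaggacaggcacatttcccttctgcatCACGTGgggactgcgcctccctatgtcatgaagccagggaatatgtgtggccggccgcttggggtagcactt
ATP6V0B: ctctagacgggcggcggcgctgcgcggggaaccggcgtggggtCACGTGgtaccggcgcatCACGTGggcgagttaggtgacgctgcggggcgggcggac
ATP6AP1: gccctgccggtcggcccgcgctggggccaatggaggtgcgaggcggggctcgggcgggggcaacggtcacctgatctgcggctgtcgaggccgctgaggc
ATP6V1E1: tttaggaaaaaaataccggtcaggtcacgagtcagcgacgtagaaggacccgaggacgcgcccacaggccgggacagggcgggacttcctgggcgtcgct

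The core began 58 bases before the start of ATP6V1G1 and 59 bases before that of ATP6V0D1, 72 before that of ATP6V0E2, and 57 and 39 before that of ATP6V0B. The main calls of these genes differed in direction: ATP6V1G1 and ATP6V0B were called lower, ATP6V0D1 and ATP6V0E2 higher. Each of the lower calls was lost under 7 of 19 alternatives. With trends in GC content and transcript length taken out, neither was called (-0.07, edgeR adjusted p = 0.16, and -0.09, adjusted p = 0.22). ATP6V0D1 (0.28, edgeR adjusted p = 1e-07) and ATP6V0E2 (0.53, adjusted p = 4.1e-09) stayed higher there. Of the factors that bind the element, TFE3 rose from 121.7 ± 6.58 to 133.7 ± 2.88 CPM (edgeR log2 fold change 0.14 with SE 0.0381, adjusted p = 0.0038) and MITF fell from 16.4 ± 0.710 to 13.3 ± 1.36 CPM (edgeR log2 fold change -0.30 with SE 0.0859, adjusted p = 0.0047; SD, n = 4 each). TFEB was at 6.59 ± 0.979 and 5.84 ± 0.822 CPM (edgeR adjusted p = 0.32), and TFEC did not pass the filter. A match of letters is a description and not a site of binding.

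Genes that build or regulate the pump were mixed. Of 14 such genes 7 were called, 4 lower and 3 higher, and their median log2 fold change was 0.02. Beside them, 44.7% of all tested genes were called, 22.1% lower and 22.6% higher. WDR7, a partner of the DMXL proteins that assemble V1 onto V0, rose from 10.7 ± 1.30 to 15.3 ± 0.391 CPM (edgeR log2 fold change 0.51 with SE 0.0925, adjusted p = 2.6e-05). Its partners DMXL1 (0.03, adjusted p = 0.77) and DMXL2 (0.11, adjusted p = 0.14) were not called by edgeR. WDR7 shares its span with TXNL1 on the other strand, which held 433% of its level and was not called (edgeR adjusted p = 0.99). RNASEK, a small membrane protein found in V0, fell from 62.7 ± 2.53 to 44.2 ± 3.49 CPM (edgeR log2 fold change -0.50 with SE 0.0528, adjusted p = 1.1e-09; SD, n = 4 each). It shares its span with C17orf49 on the same strand, which was also lower (-0.56, edgeR adjusted p = 2.8e-06), and 62.5% of the deposited values of RNASEK were not whole. NCOA7, a TLDc-domain protein that binds the pump, changed by -0.36 (SE 0.0909, edgeR adjusted p = 0.0016), and VMA21, a chaperone of V0 assembly, by 0.01 (adjusted p = 0.91).

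On the lysosomal surface the pump works with Ragulator, the Rag GTPases and mTORC1. Of 17 genes of this list 8 were called, 5 lower and 3 higher, with a median of -0.08. Beside them, 44.7% of all tested genes were called, 22.1% lower. Of the 5 Ragulator genes 3 were called lower, LAMTOR4 (-0.41, edgeR adjusted p = 7.2e-06), LAMTOR5 (-0.27, adjusted p = 0.0004) and LAMTOR2 (-0.27, adjusted p = 0.0048), while LAMTOR1 (-0.08, adjusted p = 0.13) and LAMTOR3 (0.01, adjusted p = 0.90) were not called. These genes other than LAMTOR4 were named after their values were seen. The kinase gene MTOR rose from 65.6 ± 3.73 to 83.2 ± 2.75 CPM (edgeR log2 fold change 0.34 with SE 0.0450, adjusted p = 1.1e-07) and FNIP2, a partner of folliculin, from 13.4 ± 1.53 to 18.8 ± 2.31 CPM (0.49, SE 0.0922, adjusted p = 5.2e-05; SD, n = 4 each). Without ELAPOR1 replicate 4 the number of lower calls was 3. With trends in GC content and length taken out LAMTOR2 was no longer called. LAMTOR4 overlaps C7orf43 on the other strand.

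Proton pumping builds up voltage unless counter-ions move too, and channels and exchangers of endosomes and lysosomes allow that. Of 15 such genes 12 were tested and 5 were called, 3 lower and 2 higher, with a median of -0.08. The share called among all tested genes was 44.7%. CLCN7, the chloride-proton exchanger of lysosomes, fell from 54.1 ± 2.54 to 38.1 ± 2.67 CPM (edgeR log2 fold change -0.51 with SE 0.0550, adjusted p = 2.4e-09). TPCN1, an endolysosomal cation channel, fell from 101.6 ± 2.58 to 74.7 ± 2.13 CPM (-0.44, SE 0.0400, edgeR adjusted p = 3.7e-11; SD, n = 4 each). OSTM1, the partner of CLCN7, changed by -0.10 (adjusted p = 0.25 in edgeR). The higher calls were CLCN3 and TMEM175, both named after their values were seen. The call of TMEM175 was lost, leaving 1, without any one of control replicates 1, 2 and 3 and ELAPOR1 replicates 2, 3 and 4.

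The mitochondrial ATP synthase, the related rotary enzyme that makes ATP, is set beside the pump. Of its 16 genes 4 were called, all lower, with a median of -0.05. The share called lower among all tested genes was 22.1%, and 22.6% were called higher. ATP5MC2 encodes a ring proteolipid and fell from 153.2 ± 7.03 to 119.1 ± 1.63 CPM (edgeR log2 fold change -0.36 with SE 0.0364, adjusted p = 4.5e-10; SD, n = 4 each), and ATP5MG (-0.24, adjusted p = 9.1e-07) and ATP5ME (-0.23, adjusted p = 0.00034) encode small membrane subunits. Its catalytic head genes ATP5F1A (-0.01, edgeR adjusted p = 0.85) and ATP5F1B (-0.05, adjusted p = 0.12) were not called. Of the deposited values of ATP5MG 100% were not whole. ATP5MG shares its span with AP001267.5 on the same strand, which held 3.91% of its level. The difference between the enzymes was not tested. With trends in GC content and length taken out the call of ATP5ME was lost, and 3 genes of the list were called lower and 2 higher. These lower calls need not all be calls of the main fit. Without control replicate 1, 7 of the 16 genes were called lower.

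Among all tested genes, the profile over the 8 libraries most like that of ATP6V1H belonged to ZFAS1, ANXA9 and HYI. Likeness was the root mean square difference of log2(CPM + 1) after centring each gene, and was 0.0358, 0.0367 and 0.0386. Among the other members ATP6V1C1 was closest, at rank 747 (0.117), and ATP6V0D1 most distant, at rank 11265 (0.366). With 8 libraries in 2 groups, such likeness mostly records a log2 fold change of similar size, which was -0.46 for each of ZFAS1, ANXA9 and HYI.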

How the data were processed

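RNA of 4 control and 4 ELAPOR1 libraries was extracted with TRIzol and sequenced on an Illumina NextSeq, per the labels' protocols. The authors deposited 1 table of RSEM expected counts per gene, unscaled between libraries. The submitters' processing notes list cutadapt, STAR, RSEM, DESeq2 and hg38, without versions; the annotation and the use of strand are not given in the sources used here. RSEM divides reads that match several genes, and 15.0% of nonzero values were not whole, so near copies are uncertain; pseudogenes of the subunits held at most 2 counts in any library.

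Rounded counts went into edgeR 4.0.16, under R 4.3.3 (filterByExpr, TMM, robust quasi-likelihood, two-sided, Benjamini-Hochberg over 13860 genes, called under 0.05). CPM are TMM-scaled. The SE is the log2 fold change over the square root of F. Lengths and coordinates are from GENCODE 29 (GRCh38), where 58597 identifiers matched. Shares were compared by an exact permutation test in SciPy 1.17.1. Alternatives included DESeq2 1.42.0 and limma 3.58.1. The procedure was tested on simulated data. Members and gene lists were chosen with earlier results of these data known. The named genes are the members, all other subunits, the 3 called genes that changed most in each list, the 3 profiles most like ATP6V1H, and the neighbours of members on chromosomes 16 and 17. 1 result that this rule names is not reported here. Same-numbered replicates did not deviate together (correlations of -0.02 to 0.03).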

Additional observations from a re-analysis of the deposited data

Results flagged for a closer look

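Of 48 groups of 4 libraries examined (CPM of the 20 tested subunit genes, the 3 subunit shares and the library totals), 2 had a library far from the other 3, where 2.4 are expected by chance. ATP6V1C1 was at 122.7 CPM in ELAPOR1 replicate 3, beside 120.2 CPM in each of the other ELAPOR1 libraries, a small gap next to the control level of 148 ± 4.57 CPM (SD, n = 4). ATP6V0A1 was at 30.0 CPM in ELAPOR1 replicate 2, where the other ELAPOR1 libraries ran from 26.1 to 26.3 CPM. Without ELAPOR1 replicate 2 its log2 fold change was 0.05 in place of 0.10, and it was not called with or without that library. The labels give no batch or date, and no cause of these gaps was tested.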

How the results depend on the processing

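A total of 19 alternatives were run for each count of calls and each named subunit gene, and 10 for the shares. Under a test against a 1.5-fold change, 0 members, 0 other subunits and 0 genes of each list were called, beside 215 of all genes. ATP6V1B2, ATP6V1C1, ATP6V1E1, ATP6V1H, ATP6V0D1 and ATP6AP1 kept direction and call in the other 18 alternatives. An adjusted p under 0.01 left 1 higher call among other subunits, 3 lower in the Ragulator list and 1 higher among channels, where DESeq2 and no filter also left 1. With GC content and length trends removed the members' median was -0.0126, other subunits had 2 lower calls and the ATP synthase 2 higher. Fits without 1 library gave 1 to 2 higher calls in other subunits (1 without control replicate 2), 3 to 7 lower in the Ragulator list, 1 to 2 higher among channels and 4 to 7 lower in the ATP synthase. They gave share differences of -10.07 to -8.772 points (TCIRG1) and -6.816 to -5.761 points (ATP6V0E1), where 4 against 3 libraries cannot pass the exact permutation test. Signs changed, uncalled, for ATP6V1D (0.0182 by total counts, 0.0402 without GC and length trends, -0.0221 to 0.016 without 1 library), ATP6V1F (0.0338) and ATP6V0C (0.0093) without those trends, and ATP6V0E1 (-0.023 to 0.0316 without 1 library). The cause was not tested. With a replicate block, members had 5 lower and 3 higher calls and all genes 5926 calls in place of 6193. The numbers are shared labels only, and 1 of 4 libraries correlated best with its own number. Scaling choices put 48.1% to 56.1% of all calls higher, beside 50.5%. ATP6V1B1 and other genes under 20 counts are limited by depth.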
